A study of Mus musculus with 4 samples.

Results

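The genes described here are 35 genes of sterol and fatty acid synthesis, chosen by name from pathway knowledge, with results of these data already known. They were followed in ILC3s of the mouse small intestine. ILC3s, group 3 innate lymphoid cells, are lymphocytes of mucosal tissue that lack rearranged antigen receptors and secrete IL-22 and IL-17. By pathway step, 8 genes belong to the early mevalonate pathway, 11 to squalene and post-squalene synthesis, 10 to fatty acid synthesis and 6 to the regulation of these genes by SREBP. Of the 35 genes, 34 were among the 12546 rows tabulated for CD93-positive and CD93-negative ILC3s. In the table of 15242 rows for IL-17D KO and WT ILC3s, 32 were listed. Scd1, a stearoyl-CoA desaturase gene, was in neither table, and Tm7sf2 and Fads2 were in the first table only.

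The study set up 4 groups with 1 library each. One pair was ILC3s of wild-type mice and of mice deficient in IL-17D (genotype label Il17d-KO), at steady state. The other pair was wild-type ILC3s sorted as CD93+ or CD93-, where CD93 is a surface glycoprotein. The ILC3 gate took live, CD45-low cells with high CD90.2 that were negative for a T cell marker, and before the CD93 sort the cell suspension had been kept for 12 h in culture with no stimulus. The labels carry that culture step for every library, so whether it also applied to the KO and WT cells cannot be told from them. The sources used here do not state age, sex, the number of mice or how the KO allele was made. With 1 library per group no difference below has a replicate check, and no p-value is given.

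Cholesterol is built from acetyl-CoA through mevalonate, isoprenoid diphosphates and squalene, and the ring formed from squalene is trimmed in many steps. Fatty acids are built from the same acetyl-CoA and then elongated and desaturated. The transcription factors SREBP-1 and SREBP-2 (genes Srebf1 and Srebf2) induce both sets of genes. They are held in the endoplasmic reticulum by SCAP and INSIG proteins while sterols are plentiful and are released and cleaved when sterols run low.

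Levels are FPKM (fragments per kilobase of gene, scaled to library size), which can be set side by side between genes of 1 library. Differences are log2((FPKM + 1) / (FPKM + 1)), and ratios are of FPKM without the added 1. Intervals in parentheses are 95% exact counting intervals from recovered read numbers and cover counting error only, since PCR copies are not independent molecules. A gene was measured if its FPKM reached 1 in either library of a pair. It was counted as higher or lower if the log2 difference was at least 1, which is 2-fold in FPKM + 1. All counts of genes 2-fold apart use that scale. At low levels an FPKM ratio beyond 2-fold can therefore stay uncounted, as for Acss2 in the CD93 pair and Srebf1 between KO and WT. The totals behind the FPKM scaling were 11712846 and 11790580 for the CD93-positive and CD93-negative libraries and 27002581 and 26087274 for KO and WT. Over a pair, the measured genes of the set had 92 to 12440 reads (median 904) in the CD93 libraries and 279 to 39375 (median 1549) in KO and WT. Of 10 listed ILC3 markers, Il7r, Il23r, Kit and Thy1 had an FPKM of at least 19.0 in all 4 libraries. Ahr was the lowest of the list in each library. It had 5.76 FPKM in the CD93-positive and 10.02 in the CD93-negative library, 2.57 in KO and 5.01 in WT. Cd93 itself reached 155.0 FPKM in the positive library against 79.9 in the negative one, the direction of the sort labels, and Il17d was not analysed here.

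Most genes of sterol synthesis had higher levels in the CD93-positive library than in the CD93-negative one. Of the 34 genes, 10 were higher by 2-fold or more (29.4%) and 1 lower (2.94%). Over all 10117 measured genes 2.49% were higher and 1.94% lower, 4.43% in all. Among measured genes with at least 1000 reads over the pair, 2.46% were higher and 3.81% were 2-fold apart in either direction, and of the 15 genes of the set in that class 8 were higher and 0 lower. The median difference of the 34 genes was 0.55, against 0.04 over all measured genes, and 29 of the 34 lay above 0. Of the 32 genes with recovered reads, the counting interval of the ratio lay wholly above 1 for 26, wholly below 1 for 3 and held 1 for 3. All 34 passed the minimum level, 2 of them (Acss2 and Fads2) through the CD93-negative library alone. The FPKM of the 34 genes summed to 649 in the positive and 356 in the negative library.

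**Figure D1:**
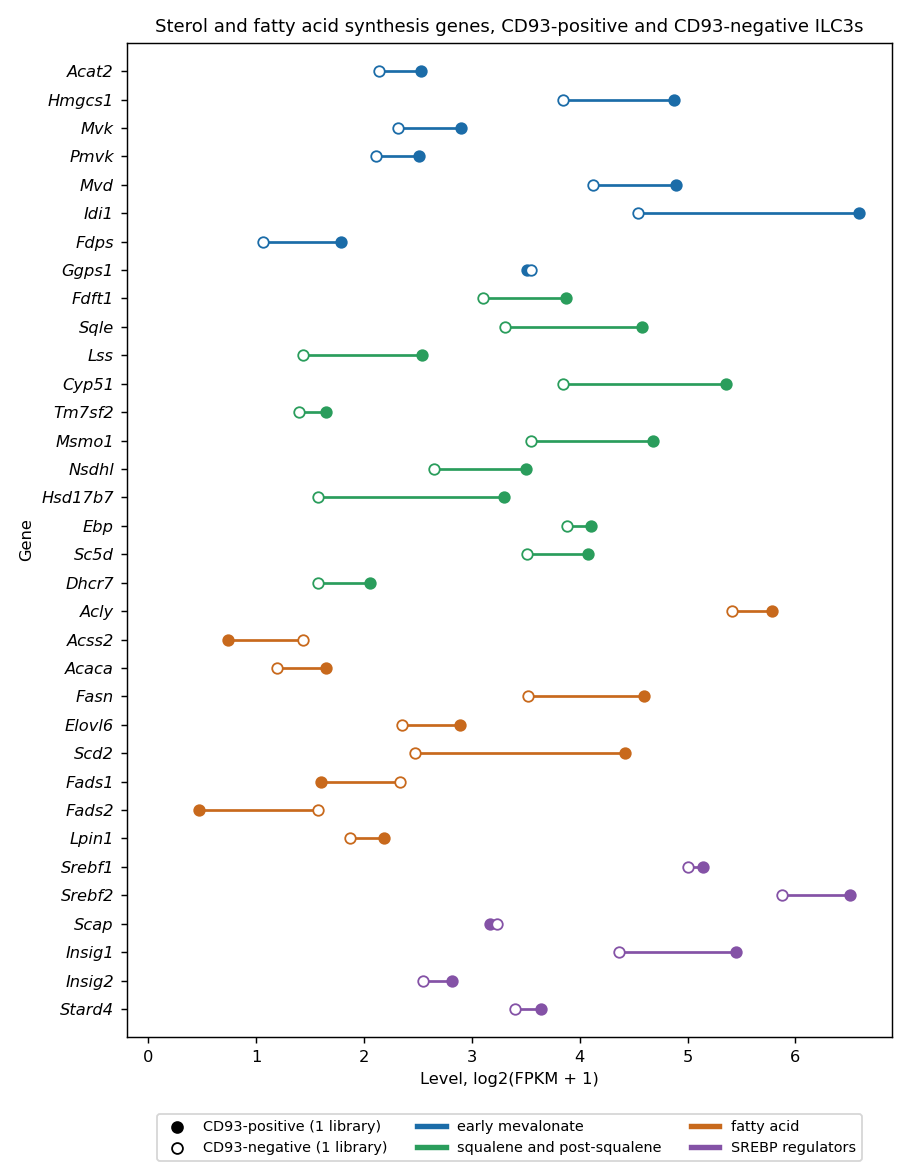
Level of each gene as log2(FPKM + 1) in the CD93-positive (filled) and CD93-negative (open) library, coloured by pathway step, with 1 library per point. All 11 genes of the squalene and post-squalene step lie to the right in the CD93-positive library, and Acss2, Fads1 and Fads2 lie to the left.

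How far these values lie from 0 depends on the scale of the 2 libraries. A list of 13 housekeeping genes was higher in CD93-positive ILC3s too, with a median difference of 0.63 and a range of -0.23 to 0.98, and 0 of them were counted. When the libraries were scaled to a median ratio of 1 over these genes, the median of the set was 0.01, with 3 genes higher by 2-fold or more and 3 lower. With both libraries scaled to their mean summed FPKM, 5 were higher and 1 lower, beside 1.71% and 2.92% of all measured genes. With the housekeeping scaling the median over all measured genes was -0.52, and 0.769% of them were higher and 9.37% lower. The distance between the set's median and that of all genes was 0.51 as deposited and 0.51 to 0.53 in the other 3 scalings. Each scaling multiplies all genes of a library by the same factor, so this distance could hardly change and is not a check. The remaining scaling set to 1 the median ratio of genes that reached 1 FPKM in both libraries. Idi1, Hsd17b7 and Scd2 were at least 2-fold higher, and Fads2 lower, in all 4 scalings.

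**Figure D2:**
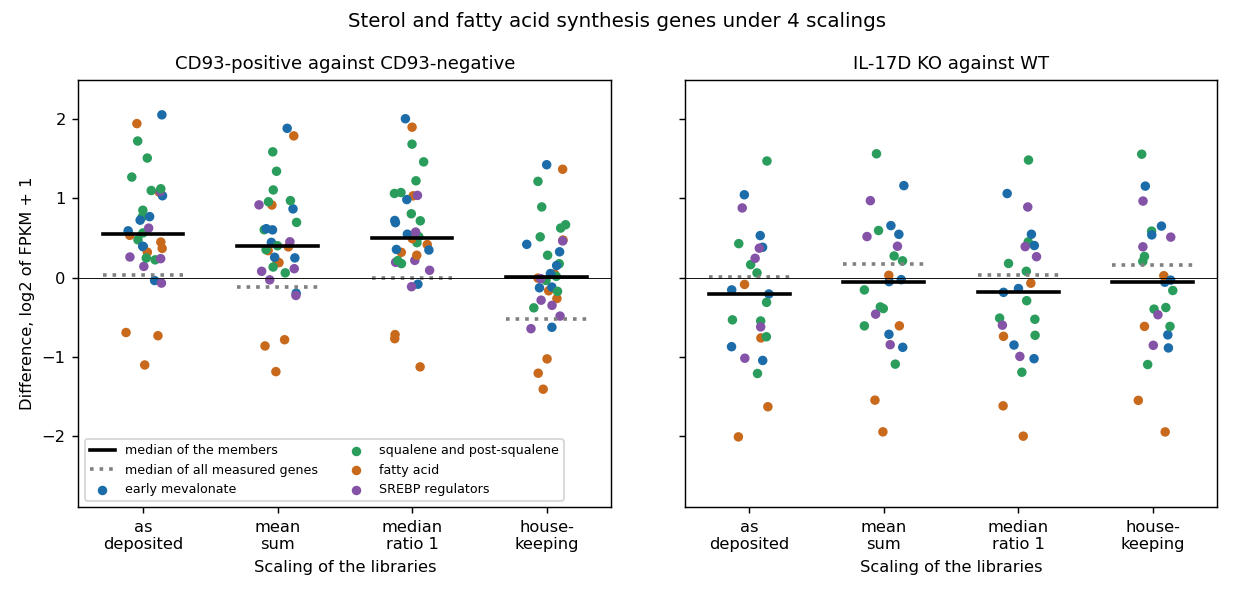
Difference in log2 of FPKM + 1 for each measured gene of the set under 4 scalings of the libraries, for CD93-positive against CD93-negative (left) and KO against WT (right), 1 point per gene. The black bar is the median of the set and the dotted bar that of all measured genes. In the left panel they keep a distance of 0.51 to 0.53, since a scaling shifts all genes nearly alike.

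Promoters of the genes are shown because the members of this pathway are known to share SREBP, NF-Y and Sp1 as regulators. The windows run from 250 bases before to 50 after the start site in RefSeq (build GRCm38.p6), and 28 of the 35 genes matched, with 36 windows. The searched letters were TCACNCCAC for an SREBP site, CACGTG for an E-box, CCAAT for an NF-Y box and GGGCGG for a GC box, on both strands. No site of 1 motif overlapped a site of another in these 36 windows. The RefSeq starts and those of the GENCODE M21 genes differ, so of the 250 bases before the RefSeq start the printed stretches hold only those that also lie outside the GENCODE gene. They stand on the gene's own strand with motif letters in capitals, and show 4 of the 10 genes counted as higher in the positive library.
Hsd17b7 (chr1:169969242-169969455, minus strand): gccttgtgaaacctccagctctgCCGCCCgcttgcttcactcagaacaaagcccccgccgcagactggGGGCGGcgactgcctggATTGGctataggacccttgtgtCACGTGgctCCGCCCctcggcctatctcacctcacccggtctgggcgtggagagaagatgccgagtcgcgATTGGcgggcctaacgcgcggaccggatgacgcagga
Cyp51 (chr5:4104747-4104947, minus strand): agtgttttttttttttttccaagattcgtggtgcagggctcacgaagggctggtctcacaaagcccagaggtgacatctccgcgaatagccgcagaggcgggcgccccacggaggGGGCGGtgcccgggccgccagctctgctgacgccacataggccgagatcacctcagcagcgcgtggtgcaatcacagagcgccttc
Insig1 (chr5:28071162-28071362, plus strand): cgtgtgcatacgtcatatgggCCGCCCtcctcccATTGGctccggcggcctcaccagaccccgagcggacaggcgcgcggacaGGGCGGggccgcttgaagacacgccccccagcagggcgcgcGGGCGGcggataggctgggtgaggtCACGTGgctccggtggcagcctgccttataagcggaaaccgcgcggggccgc
Hmgcs1 (chr13:119690101-119690350, plus strand): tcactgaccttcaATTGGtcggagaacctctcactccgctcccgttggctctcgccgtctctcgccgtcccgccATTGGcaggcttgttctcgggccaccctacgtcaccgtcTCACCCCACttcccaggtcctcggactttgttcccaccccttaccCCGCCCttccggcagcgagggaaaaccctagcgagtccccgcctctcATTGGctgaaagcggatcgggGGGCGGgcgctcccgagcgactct
In these stretches, Hmgcs1 held the SREBP letters 137 bases before the start as TCACCCCAC, between NF-Y boxes. Hsd17b7 held 2 NF-Y boxes, 3 GC boxes and 1 E-box, Insig1 1, 3 and 1 of these, and Cyp51 1 GC box. A further NF-Y box of Cyp51, 29 bases before the RefSeq start, and 1 of Hsd17b7, 12 bases before it, lay inside the GENCODE genes and are not printed. For Idi1, 105 of the 250 bases lay inside the GENCODE gene, and for Fads2 243, and these held all of their motif letters (3 and 1 sites), so neither is printed. Over the 36 windows, 63.9% held an NF-Y box against 37.4% of all 32851 windows and of the 10381 windows of genes measured in the CD93 pair. For the GC box these shares were 72.2%, 35.7% and 62.9%, for the E-box 16.7%, 7.15% and 10.2%, and for the SREBP letters 2.78% (1 window), 1.24% and 1.11%. A match is a string of letters, and binding was not measured.

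The early mevalonate genes turn acetyl-CoA units into isoprenoid diphosphates. In the CD93 pair 2 of 8 were counted as higher and 0 as lower, and the median was 0.66. Idi1, the isomerase that makes dimethylallyl diphosphate (ENSMUSG00000058258.14, mm10 chromosome 13, 8885501 to 8892451, plus strand), reached 95.6 FPKM in the positive library against 22.2 in the negative one. It was 4.30-fold higher (4.0 to 4.63), with the widest difference of the set on the log2(FPKM + 1) scale (2.06), while the FPKM ratios of Scd2 and Hsd17b7 and the fold of Fads2 were wider. Its level was the highest of the 34 genes in the CD93-positive library but ranked 4 in the CD93-negative one. Hmgcs1, the HMG-CoA synthase at the entry of the pathway, had 28.4 and 13.3, a ratio of 2.13 (1.95 to 2.33). Its difference of 1.03 lay just over the limit and was 0.99 with that median ratio set to 1. With the mean sum it was 0.87, and with the housekeeping scaling 0.42.

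The other 6 genes of that step stayed under 2-fold. Fdps, the farnesyl diphosphate synthase gene, had 2.45 and 1.09, a ratio of 2.26 (1.62 to 3.17) that stays under the limit on the log2(FPKM + 1) scale because of its low level. Mvd, the mevalonate diphosphate decarboxylase gene, had 28.7 and 16.4 (ratio 1.75, 1.53 to 2.0). Mvk, the mevalonate kinase gene, had 6.48 and 3.96 (1.63, 1.30 to 2.06). These 3 were above 0 in all 4 scalings. Pmvk, the next kinase, had 4.68 and 3.32, and Acat2, a cytosolic thiolase, 4.77 and 3.40, and both lay below 0 with the housekeeping scaling (-0.12 and -0.13). Ggps1, which makes the geranylgeranyl diphosphate of protein prenylation and so leads away from sterols, had 10.4 and 10.7, with an interval that held 1 (0.87 to 1.09).

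All 11 genes from squalene synthase onward had a higher value in the CD93-positive library as deposited, while Ebp, Tm7sf2 and Sc5d lay below 0 with the housekeeping scaling. Of the 11, 5 were counted, and the median was 0.85 (0.28 with the housekeeping scaling). Hsd17b7, a 3-keto-sterol reductase (ENSMUSG00000026675.12, chromosome 1, 169949535 to 169969241, minus strand), had 8.85 and 1.98, a ratio of 4.47 (3.66 to 5.51). Cyp51, the lanosterol demethylase (chromosome 5, 4081145 to 4104746, minus strand), had 40.1 and 13.4, a ratio of 2.99 (2.74 to 3.26). Lss, the lanosterol synthase, had 4.8 and 1.71, a ratio of 2.82 (2.41 to 3.30).

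Sqle, the squalene epoxidase and a control point of the pathway, had 22.9 and 8.92 (ratio 2.57, 2.33 to 2.83). Msmo1, the sterol C4-methyl oxidase, had 24.6 and 10.7 (2.29, 2.10 to 2.49). Of these 5 genes, Hsd17b7 alone was counted with the housekeeping scaling, and Hsd17b7, Cyp51 and Sqle with the mean sum. Nsdhl, which acts with Msmo1 in removing C4 methyl groups, had 10.4 and 5.29, a ratio of 1.96 (1.63 to 2.36). Fdft1, the squalene synthase gene, had 13.6 and 7.62, with no interval because its reads were not recovered. Its annotated exons overlap those of Ctsb on the opposite strand.

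The other 4 genes of that step lay closer to equal. Sc5d, the sterol C5-desaturase, had 15.8 and 10.4 (1.53, 1.37 to 1.70). Dhcr7, the final reductase of 7-dehydrocholesterol, had 3.16 and 1.98 (1.59, 1.28 to 1.99). Ebp, a sterol isomerase, had 16.3 and 13.8 (1.18, 1.03 to 1.36), and Tm7sf2, a C14 sterol reductase, 2.13 and 1.64, with an interval that held 1 (0.97 to 1.75).

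**Figure D3:**
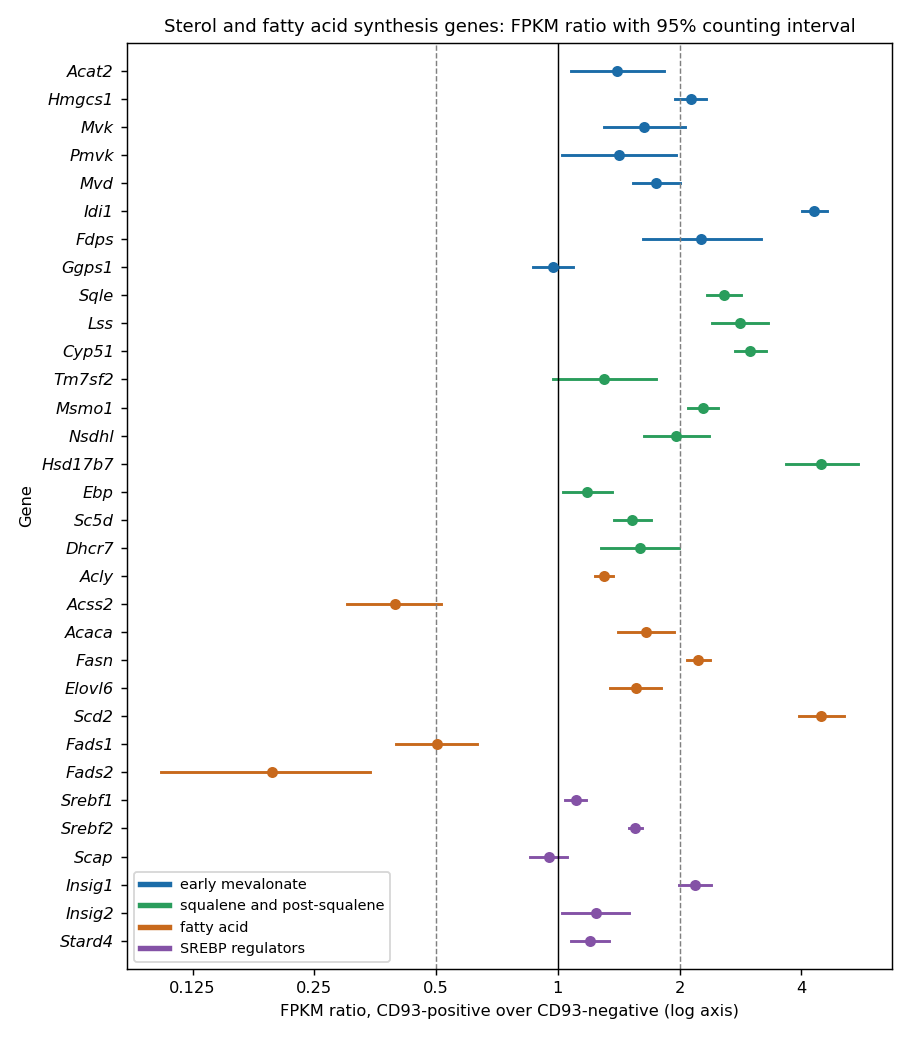
FPKM ratio of CD93-positive over CD93-negative ILC3s on a log axis for the 32 genes with recovered reads, with 95% counting intervals as lines. Dashed lines mark ratios of 0.5 and 2. Hsd17b7, Scd2 and Idi1 lie above 4, and Fads2 (0.196), Acss2 (0.395) and Fads1 (0.503) lie to the left of the other genes.

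The fatty acid genes split. Of 9 measured, 2 were counted as higher and 1 as lower, and the median was 0.37, or -0.17 with the housekeeping scaling. Scd2, a stearoyl-CoA desaturase that makes monounsaturated fatty acids (ENSMUSG00000025203.6, chromosome 19, 44293674 to 44306864, plus strand), had 20.4 and 4.55, a ratio of 4.48 (3.94 to 5.10). Fasn, the fatty acid synthase gene, had 23.2 and 10.5, a ratio of 2.22 (2.08 to 2.37). Genes around it were less far apart. Acaca, acetyl-CoA carboxylase 1, had 2.13 and 1.29 (1.65, 1.41 to 1.93), Elovl6, an elongase of palmitate, 6.41 and 4.11 (1.56, 1.35 to 1.8), and Acly, ATP citrate lyase, 54.1 and 41.7 (1.30, 1.23 to 1.37). Lpin1, the lipin-1 phosphatase of glycerolipid synthesis, had 3.56 and 2.65. Acly, Elovl6 and Lpin1 lay below 0 with the housekeeping scaling.

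The desaturases of polyunsaturated fatty acids and the acetate enzyme had the opposite direction from Scd2 and Fasn. Fads2, the delta-6 desaturase (ENSMUSG00000024665.8, chromosome 19, 10062765 to 10101746, minus strand), had 0.389 FPKM against 1.98 in the negative library. That is 15 and 77 reads, 5.10-fold lower (2.91 to 9.55). Its neighbour Fads1, the delta-5 desaturase, had 2.04 and 4.05, 1.99-fold lower (1.58 to 2.51). Acss2, which makes acetyl-CoA from acetate, had 0.672 and 1.70, 2.53-fold lower (1.95 to 3.32). These 3 genes lay below 0 in all 4 scalings. In the positive library, Fads2, Acss2 and Fads1 had the lowest levels of the 34 genes.

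Among the regulators 1 of 6 was counted, and the median was 0.25, or -0.32 with the housekeeping scaling. Insig1, which retains SCAP and is itself induced by SREBP (ENSMUSG00000045294.11, chromosome 5, 28071363 to 28078662, plus strand), had 42.7 and 19.6, a ratio of 2.18 (2.0 to 2.39). Its homologue Insig2 had 6.02 and 4.86 (1.24, 1.02 to 1.5). The level of Insig1 was 7.09 times that of Insig2 in the positive and 4.02 times in the negative library. Srebf2, the factor of sterol genes, had 89.7 and 57.8, a ratio of 1.55 (1.5 to 1.61), and -0.01 with the housekeeping scaling.

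Srebf1, the factor of fatty acid genes, had 34.4 and 31.1, a ratio of 1.11 (1.04 to 1.18). It lay below 0 with the mean sum (-0.03) and with the housekeeping scaling (-0.48). Scap, the sterol-sensing escort of SREBP, had 8.0 and 8.43, a ratio of 0.948 with an interval that held 1. Stard4, a cytosolic sterol carrier, had 11.5 and 9.55 (1.20, 1.08 to 1.34). Insig2 and Stard4 lay below 0 with the housekeeping scaling.

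Other genes around sterols were taken as lists. Of 5 further genes of sterol synthesis, 2 were counted as higher and 0 as lower, among them the mitochondrial thiolase Acat1 (19.1 and 8.73), and the median was 0.94. Of 10 genes of SREBP cleavage and of sterol-regulated degradation, such as the proteases Mbtps1 (13.1 and 13.6) and Mbtps2 (3.36 and 2.74), 0 were counted, with a median of 0.13. Of 12 genes of sterol uptake and transport, 3 were counted as higher and 0 as lower. They included Lrp1, a lipoprotein receptor (41.3 and 7.56, 5.46-fold, 5.17 to 5.76), and Tmem97, the sigma-2 receptor (8.57 and 3.15, 2.72-fold, 1.96 to 3.83). The list's median was 0.10.

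The list of LXR, a sterol-sensing receptor, and its targets was mixed. Of 11 genes 0 were counted as higher and 2 as lower, 4 lay above 0 and 7 below, and the median was -0.14. Mylip, the ligase IDOL that degrades lipoprotein receptors, had 6.18 and 16.8 and was 2.72-fold lower (2.34 to 3.17). Smpdl3a, a phosphodiesterase gene, had 6.53 and 18.03 and was 2.76-fold lower (2.30 to 3.33). The sterol exporters Abcg1 (2.76 and 6.11) and Abca1 (0.519 and 1.26) had ratios of 0.45 (0.39 to 0.53) and 0.41 (0.30 to 0.56). The receptor gene Nr1h2 had 72.2 and 79.5. Genes above 0 included Apoe (7.19 and 4.64) and Lpcat3 (9.59 and 7.89).

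Of 6 genes of esterification and oxysterols 1 was counted as higher and 0 as lower, with a median of 0.23, and Gpr183, an oxysterol receptor of ILC3s that was not counted, had 121 and 73.1. Of 14 genes of fatty acid activation and further synthesis, 1 was higher, the elongation reductase Hsd17b12 (32.5 and 13.2, 2.45-fold, 2.17 to 2.77). The median of these 14 was 0.42, with 10 above 0 and 4 below. No gene was counted among 14 of fatty acid oxidation (median 0.02), 12 of prenylation, dolichol and ubiquinone (0.21) and 11 of triglycerides and phospholipids (0.20).

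Of 10 ILC3 markers 2 were counted as higher in the positive library, among them the cytokine gene Il22 (7934 and 1655), 4 lay below 0, such as Ahr (5.76 and 10.02), and the median was 0.21. Markers of other cells differed between the same libraries too. All 6 measured epithelial genes lay lower in the positive library (1 at least 2-fold, Epcam), with a summed FPKM of 26.1 and 46.1 over 9 tabulated genes. All 10 exocrine pancreas genes lay lower, with sums of 378 and 593 and 0 counted, and so did 4 of 4 T cell genes, with sums of 3.11 and 11.2. Myeloid genes summed to 45.4 and 38.8, and fibroblast and smooth muscle genes to 11.8 and 4.63, nearly all of it Lum (11.3 and 3.95). Of 8 adipocyte and hepatocyte genes, 0 were tabulated. What part these cells or their RNA have in the values of the set was not tested, and in bulk RNA fewer cells of a type cannot be told from less RNA per cell.

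**Figure D4:**
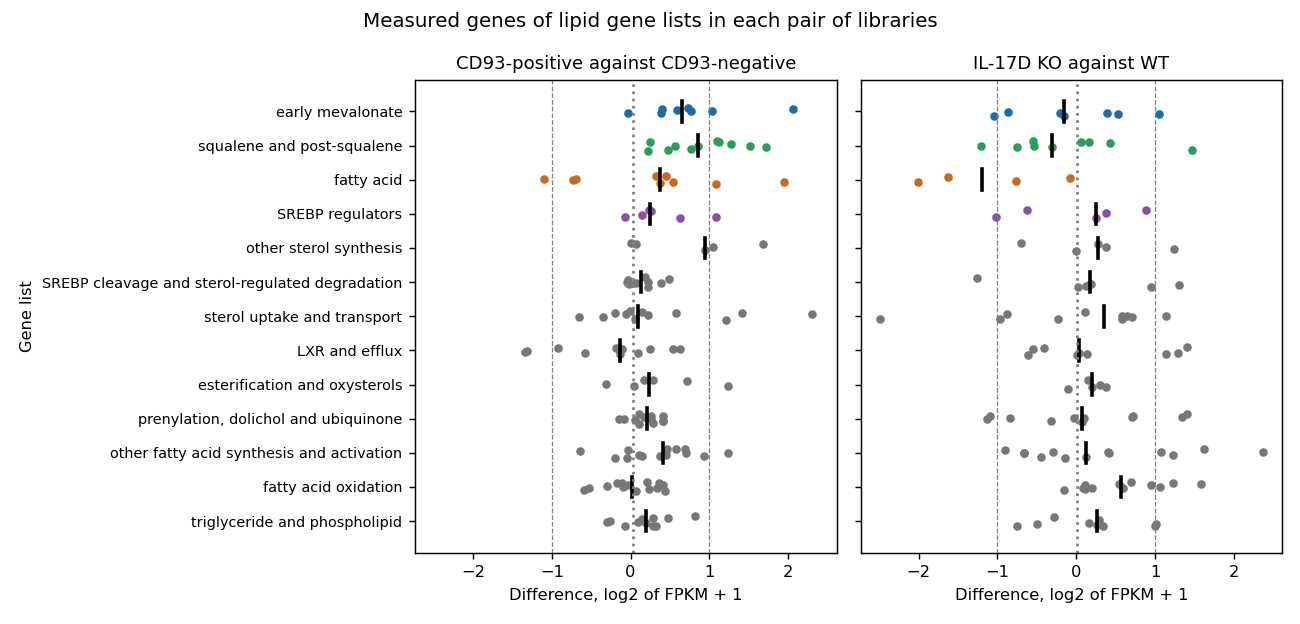
Difference in log2 of FPKM + 1 for the measured genes of 4 steps of the set (coloured) and 9 further lipid lists (grey), with 1 point per gene, a black bar at each list's median and a dotted line at the median of all measured genes. Dashed lines mark 2-fold. In the left panel the squalene and post-squalene genes all lie right of 0, and the LXR list reaches farthest left. In the right panel the steps spread to both sides.

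The second comparison asks how the same genes differ between IL-17D KO and WT ILC3s. Here the set showed no shared direction. Of 25 measured genes, the KO library had 2 higher by 2-fold or more (8%) and 5 lower (20%), and over all 12376 measured genes 16.6% were higher and 12.7% lower. Of the 25 genes, 4 passed the minimum level in 1 library only, Dhcr7 and Srebf1 in KO and Elovl6 and Fads1 in WT, and 3 of these are among the 7 counted genes. The share of the set that was 2-fold apart, 28%, was thus near the 29.3% of all measured genes. The median was -0.21, against 0.01 over all genes. The distance between them was -0.22 in all 4 scalings, which shift all genes nearly alike and so could hardly change it. Among measured genes with at least 1000 reads over the pair, 7.99% were higher and 4.22% lower (12.2% in all), and of the 16 genes of the set in that class 0 were higher and 2 lower, Idi1 and Insig1.

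**Figure D5:**
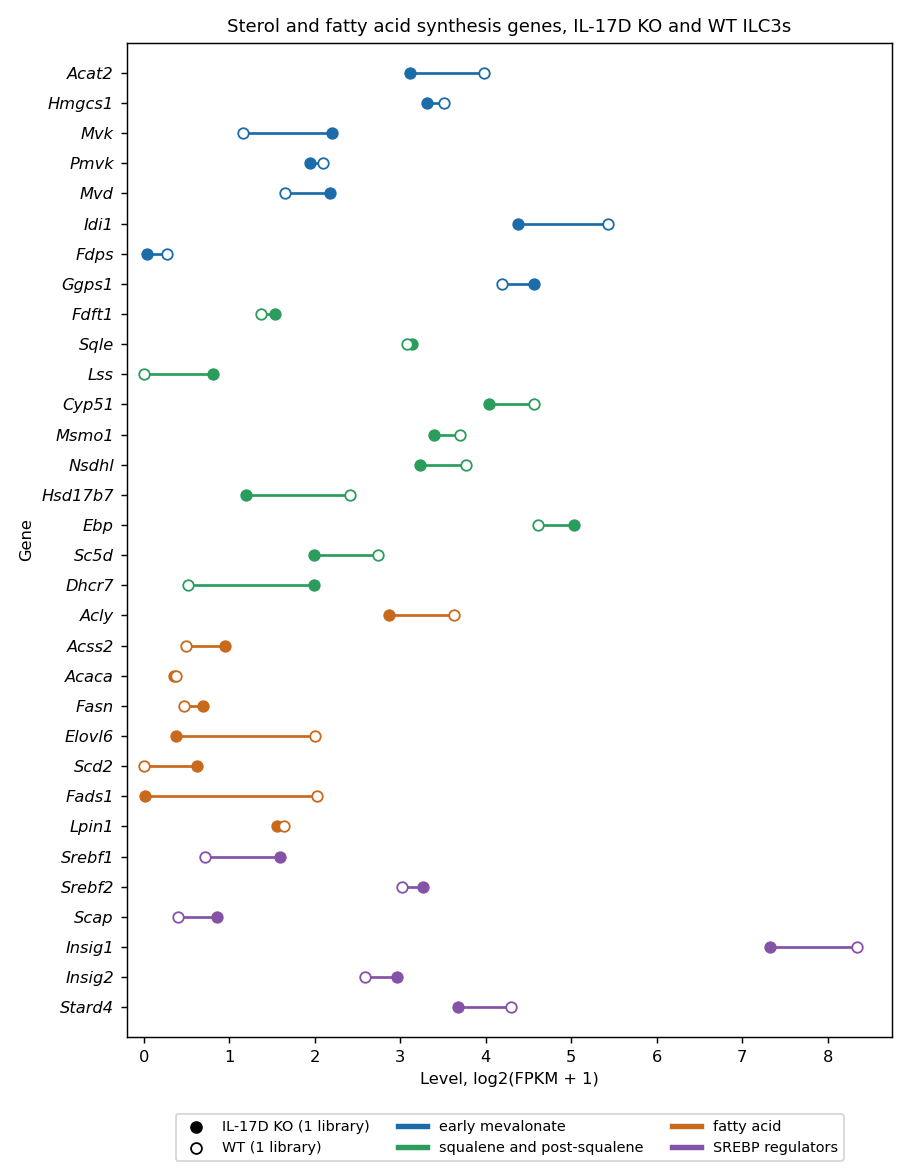
Level of each of 32 genes as log2(FPKM + 1) in the IL-17D KO (filled) and WT (open) library, coloured by pathway step, with 1 library per point. Insig1 has the highest level in both libraries, and Elovl6 and Fads1 lie near 0 in KO but not in WT.

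Among early mevalonate genes, Idi1 had 19.9 FPKM with KO against 42.1 for WT, which is 2.12-fold lower (2.0 to 2.24). Its difference of -1.05 was -0.88 with the mean sum and -0.89 with the housekeeping scaling. Mvk had 3.61 and 1.23, 2.93-fold higher (2.29 to 3.79). Acat2 had 7.66 and 14.8, 1.94-fold lower (1.74 to 2.16). The rest of that step lay under 1.7-fold or was too low to measure. Hmgcs1 had 8.92 and 10.4, Pmvk 2.85 and 3.29, Mvd 3.55 and 2.14, Ggps1 22.7 and 17.2, and Fdps only 3 and 23 reads.

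From squalene onward, 1 of 9 measured genes was higher and 1 lower. Hsd17b7 had 1.30 against 4.32, which is 3.32-fold lower (2.81 to 3.95), and was counted in all 4 scalings. Dhcr7 had 2.97 and 0.428, 6.93-fold higher (5.33 to 9.12), and passed the minimum level through the KO library alone. Sc5d had 2.97 and 5.66 (ratio 0.525, 0.46 to 0.59), Nsdhl 8.36 and 12.7 (0.66, 0.60 to 0.73) and Cyp51 15.4 and 22.7 (0.68, 0.64 to 0.72). These 3 genes lay lower without reaching 2-fold. Msmo1 had 9.48 and 12.0, Sqle 7.81 and 7.44, Fdft1 1.91 and 1.6, and Ebp 31.8 and 23.4. Lss had 220 reads in the KO library and 0 in WT, which is at least 70.8-fold higher against a floor of 3 reads, at an FPKM of 0.755 that lies under the minimum.

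Only 4 fatty acid genes were measured. Elovl6 had 0.299 against 3.02, or 52 and 507 reads, 10.1-fold lower (7.58 to 13.7). Fads1 had 0.0107 and 3.07, with no recovered reads, so the precision of its KO value is unknown. Acly had 6.29 and 11.3 (0.55, 0.51 to 0.60), and Lpin1 1.95 and 2.13. The other tabulated genes of that step lay under the minimum level in both libraries. Fasn had 0.619 and 0.382, Acaca 0.280 and 0.294, Acss2 0.936 and 0.404, and Scd2 0.543, with a listed 0 in WT.

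Of the regulators, Insig1 had 159 against 323, or 13294 and 26081 reads, 2.03-fold lower (1.99 to 2.07). Its difference of -1.02 lay under the limit in the other 3 scalings (-0.85 to -0.99). It was the most abundant gene of the set in both libraries, 23.5 times Insig2 in KO and 64.5 times in WT. Insig2 had 6.78 and 5.01 (1.35, 1.20 to 1.53). Srebf2 had 8.66 and 7.15 (1.21, 1.13 to 1.30), Srebf1 2.03 and 0.646 (3.14, 2.49 to 4.0), and Stard4 11.7 and 18.6 (0.63, 0.59 to 0.67). Scap had 0.811 and 0.319 and lay under the minimum.

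The 10 genes counted as higher in the CD93-positive library can be set beside their values in the KO pair, which shares no library with them. Of the 7 that were measured there, 6 lay lower in KO, 3 of these at least 2-fold (Idi1, Hsd17b7 and Insig1), and 0 were at least 2-fold higher. Over all measured genes the median difference was 0.01, and 12.7% were at least 2-fold lower in KO (4.22% of those with at least 1000 reads). These shares are not matched to genes that were higher in the CD93-positive library. Hsd17b7 kept its call in all 4 scalings, Idi1 lost it in 2 and Insig1 in 3. Hmgcs1, Cyp51 and Msmo1 lay lower by less, and Sqle had 0.06. The other 3 were below the minimum and had higher values in KO, Fasn by a ratio of 1.62, Lss with 220 reads against 0, and Scd2 with 0.543 against a listed 0. The 2 sets of values were not compared by a test.

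In the KO pair, 16.6% of all measured genes were higher and 12.7% lower. Each of the 9 lipid lists beside the set had a median above the 0.01 of all measured genes, from 0.04 to 0.57. Single genes of the lists lay on both sides of 0. LXR and its targets had 3 of 9 genes higher and 0 lower, among them Apoe, the lipoprotein of sterol export (6.05 and 1.86), and Lpcat3 (4.20 and 0.962), while Abcg1 had 288 and 286. Of 12 genes of fatty acid oxidation, 3 were higher, including Acadvl (10.4 and 2.80) and the carnitine carrier Slc25a20 (17.02 and 7.61), with a median of 0.57. Of 10 genes of sterol uptake and transport, 1 was higher and 1 lower, 6 lay above 0 and 4 below, and the median was 0.35. The lower one was Osbp, an oxysterol-binding protein gene (0.0243 and 4.77). The higher one was Gramd1a, a sterol transporter of the endoplasmic reticulum (9.53 and 3.76). Of 13 genes of fatty acid activation and further synthesis, 4 were higher and 0 lower, among them the elongase Elovl1 (28.1 and 11.4). Of 11 genes of prenylation, dolichol and ubiquinone, 2 were higher and 2 lower, including the CAAX protease Rce1 (11.3 and 3.63) and Coq2 of ubiquinone synthesis (1.86 and 5.13). SREBP cleavage and degradation had 1 of 7 higher and 1 lower, triglycerides and phospholipids 1 of 10 higher, further sterol synthesis 1 of 5 higher, and esterification and oxysterols 0 of 5.

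Marker genes of other cells differed between these libraries as well. All 11 exocrine pancreas genes were at least 2-fold higher in the KO library, with summed FPKM of 1645 and 7.43 and 7 of them at 0 in WT. Epithelial genes summed to 1070 and 296, with 6 of 8 higher, T cell genes to 1284 and 888, with 7 of 11 higher, B and plasma cell genes to 4666 and 2836, and myeloid genes to 59.2 and 17.4. Of 5 measured myeloid genes 3 were higher and 2 lower, the latter being Cd209a (0.0234 and 3.85) and Xcr1. Fibroblast and smooth muscle genes summed to 0.410 and 5.83. The part of these cells in the values of the set was not tested. The 13 housekeeping genes had a median of -0.16 and a range of -0.82 to 0.89.

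Some genes share exon bases with others in the annotation, and the sources used here do not say whether counting used strand. Exons of Acss2, Cyp51, Fdft1, Ggps1, Srebf1 and Tm7sf2 overlap a gene that is listed in the tables, and all but Tm7sf2 do so on the opposite strand. Reads in the shared bases cannot be assigned with certainty.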

How the data were processed

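RNA-seq libraries of 4 groups, 1 each, were read on a BGISEQ-500. Bowtie2, featureCounts (Subread), edgeR, DESeq2 and build mm10 are named in the submitters' processing notes. As to order, settings, versions and annotation, these were not given in the sources used here, so the gene lengths used below may differ from theirs. The deposited values are FPKM computed by the authors, and the joint table of each pair equalled its single-library tables. The members and gene lists were chosen with earlier results of these data known.

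Exon lengths came from GENCODE M21, in which 12399 of 12546 and 11072 of 15242 names were found. With 1 scaling total per library, FPKM times length came within 0.02 of a whole read for 98.1% and 98.2% (CD93-positive, CD93-negative) and 92.1% and 91.9% (KO, WT) of values above 0. The resulting reads gave exact Clopper-Pearson intervals of ratios. A bound against 0 uses 3 reads in that library. Tables were compared within a pair only, with Python 3.11.15, pandas 2.3.3, numpy 2.4.6 and SciPy 1.17.1, after tests on simulated data. No test across samples is possible with 1 library per group. All genes of the set are named. Other genes of the 9 lipid lists are named where they reach an FPKM of 5 in a library and are 2-fold apart. Osbp and Lpcat3 are also named for the KO pair, although they stayed under that level there. Mbtps1, Mbtps2, Abca1, Abcg1, Nr1h2, Gpr183, Lpcat3 and Apoe (CD93 pair) are examples chosen after their values were seen, and some genes are not reported here. Promoters came from RefSeq (GRCm38.p6). Alternatives were other pseudocounts, level and read filters, scalings and fold limits.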

Additional observations from a re-analysis of the deposited data

How the results depend on the processing

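No paired analysis was possible because each group has 1 library, and for the same reason no replicate could be left out. The cause of the changes below was not tested. In the CD93 pair, 10 genes of the set were higher and 1 lower. Other counts were 2 lower with a pseudocount of 0.1, 4 higher and 0 lower with 5, 0 lower with an FPKM of at least 5 or at least 1000 reads, 5 higher with the mean sum, and 3 higher and 3 lower with the housekeeping scaling. They were 16 and 3 at a 1.5-fold limit and 3 and 0 at 3-fold, beside 771 and 700, and 73 and 37, of all 10117 measured genes. The median of 0.55 was 0.0058 with the housekeeping scaling and 1.03 with at least 1000 reads. Between KO and WT, 2 genes were higher and 5 lower. These were 0 and 0 with a pseudocount of 5, 0 and 2 with an FPKM of at least 5, at a 3-fold limit or with at least 1000 reads, 3 lower with the mean sum or the housekeeping scaling, and 9 lower at a 1.5-fold limit. Over all measured genes, a pseudocount of 5 left 109 higher and 60 lower in the CD93 pair and 499 and 322 in the KO pair. The housekeeping scaling gave 79 higher and 962 lower in the CD93 pair. A pseudocount of 0.1 gave 391 and 392 there, and an FPKM of at least 5 gave 210 and 127 of 7091. In the KO pair, all measured genes gave 3281 and 2838 at 1.5-fold and 920 and 636 at 3-fold, of 12376. An FPKM of at least 5 gave 908 and 611 of 7051, and at least 1000 reads 333 and 176 of 4168. With the mean sum 1352 were lower in KO, and with the housekeeping scaling 1364. With the plus strand only, 12 in place of 23 promoter windows held an NF-Y box. The alternatives by mean FPKM and by at least 1000 reads were chosen after seeing the data. No counted gene changed direction in the pseudocounts and scalings run. Depth limits genes under 100 reads most, such as Fads2 and Fdps.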
